A study of Mus musculus with 5 samples.

Results

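The 37 genes described here encode the transcription factor p53, its regulators, a set of its targets and the core machinery of apoptosis. They were taken by gene symbol from a table of read counts of the mouse embryonic forebrain at day E12.5. All 37 symbols were in the table, among 27919 rows with a symbol, and 36 of the 37 had enough counts to be tested among 13989 genes. Polyadenylated RNA was sequenced from 2 libraries labelled wild type and 3 labelled EedcKO, all from untreated C57BL/6 littermates. The protein Eed belongs to the core of Polycomb repressive complex 2, which methylates histone H3 at repressed genes. EedcKO is the submitters' name for embryos in which Eed is deleted, and the sources used here do not give the means of deletion, the cells it reaches or the deleted exons. Nothing in the labels says that each library came from 1 embryo, and the p-values reflect only how these libraries vary, which may be partly technical.

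p53 is a transcription factor that is kept scarce by Mdm2, a ubiquitin ligase that is itself a p53 target, and by the related protein Mdm4. When DNA damage or other stress frees it, p53 turns on genes that halt the cell cycle, temper metabolism and start cell death. Apoptosis through the mitochondria is decided by the BCL2 family. Survival members such as Bcl2l1 hold the effectors Bax and Bak1 in check, and BH3-only proteins such as Bbc3 and Pmaip1 relieve that hold. Cytochrome c released from mitochondria then assembles Apaf1 and Casp9 into the apoptosome. In the embryonic forebrain this pathway removes damaged neural progenitors and young neurons.

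The counts summed to between 4820630 and 5026381 per library. Eed, which checks the labels, had 404 counts in wild type 1 but 238 in the library labelled wild type 2, beside 251, 233 and 247 in EedcKO 1, 2 and 3. The library labelled wild type 2 therefore stood at the EedcKO level of Eed, and the direction of each result that follows rests on a wild-type mean to which it contributes. Gene-level counts of Eed may also take in exons that the deletion leaves in place. In chi-square per gene, larger for less similar libraries, the 2 wild-type libraries were 8.06 apart. Pairs of EedcKO libraries were 2.55 to 4.61 apart. From EedcKO 1, 2 and 3, wild type 1 was 7.76, 8.83 and 10.4 away, and the other wild-type library 9.55, 8.88 and 9.79. Neither wild-type library was thus as near to any EedcKO library as those were to one another. Whether the library labelled wild type 2 bears the right label was not tested. That library also held the most RNA of surface epithelium, with 8 of 8 listed markers highest there (summed to 233 CPM, counts scaled to the TMM-adjusted library size, against 11.3 to 23.0 in the other 4 libraries). The same was true of 6 of 6 muscle markers (52.9 against 2.67 to 6.11 CPM) and 7 of 7 markers of the cortical hem and choroid plexus (405 against 35.5 to 167 CPM). All 9 erythroid markers were highest there too (451 against 226 to 336 CPM). Krt5, Krt14, Trp63, Myog, Myl1 and Tnni1 had 0 counts in wild type 1. EedcKO 3 had 0 counts of Krt5, Krt14, Krt15, Myog, Myl1, Tnni1 and the hem and choroid plexus markers Ttr, Folr1 and Wnt3a. The EedcKO libraries also differed in 8 mesenchyme and meninges markers, summed to 915, 456 and 671 CPM in EedcKO 1, 2 and 3. That sum was 387 CPM in wild type 1 and 630 CPM in the library labelled wild type 2. The forebrain and neural progenitor genes Emx2, Six3, Lhx2, Pax6 and Sox2 were detected in all 5 libraries, each with at least 205 counts. Both wild-type libraries and EedcKO 1 were female by Xist and Y-linked counts, and EedcKO 2 and 3 were male, so that no wild-type library was male.

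No gene of the pathway passed the test between EedcKO and wild type. Of the 36 tested, 0 reached a false discovery rate of 0.05 in edgeR's quasi-likelihood test, where 3.2% of all genes did. At an unadjusted edgeR p under 0.05 there were 8 (22.2%), against 17.2% of all genes. Of these 8, 5 were higher in EedcKO (background 7.7% of all genes) and 3 were lower (background 9.51%). DESeq2 called 1 member at a false discovery rate of 0.05 and limma-voom called 0. Fold changes were small, with 31 of 36 genes within 1.5-fold, a median log2 fold change of 0.08 (0.01 over all genes) and a median absolute log2 fold change of 0.21 (0.16 over all genes).

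**Figure D1:**
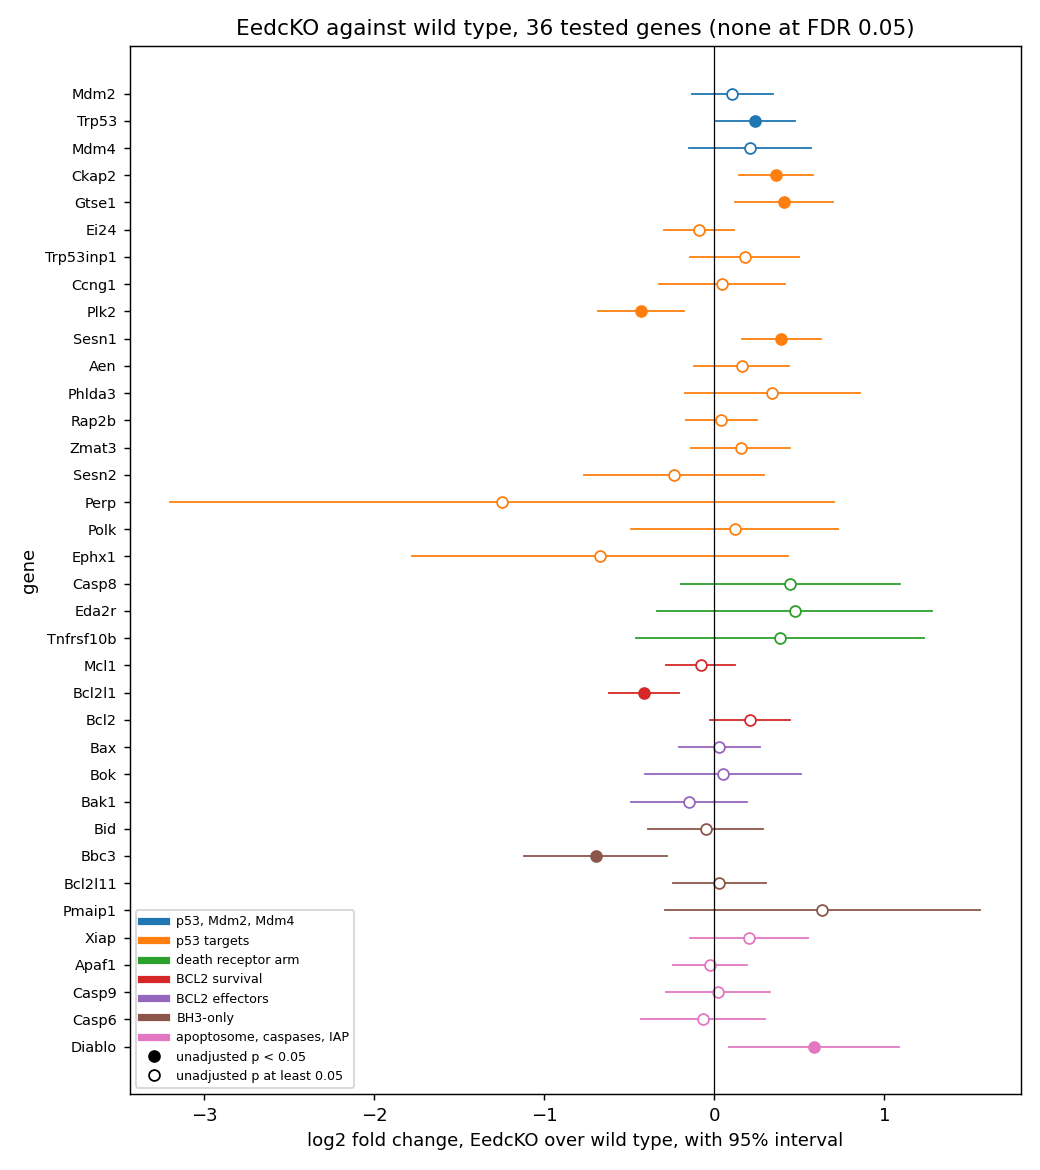
Log2 fold change of EedcKO over wild type (horizontal axis) with its 95% interval for the 36 tested genes, colored by role. Filled points mark the 8 genes with an unadjusted edgeR p under 0.05, from Bbc3 at -0.70 to Diablo at 0.59, and Perp has the widest interval (-3.20 to 0.70).

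Measured without a test, the values of the 2 groups lay fully apart in 10 of the 36 genes (27.8%), against 33.8% of all genes. EedcKO was higher in 6 of these 10 (Trp53, Ckap2, Gtse1, Sesn1, Bcl2 and Diablo; background 16.4%) and lower in 4 (Bcl2l1, Mcl1, Bbc3 and Plk2; background 17.4%). These shares are near or below those of all genes. Wild type 1 was the lowest of the 5 libraries in 17 of 36 members (47.2%), where it was lowest in 23.1% of all genes. The library labelled wild type 2 was the highest in 12 members (33.3%), where it was highest in 23.3% of all genes. In 24 of 36 members the gap between the 2 wild-type libraries was larger than the fitted change between genotypes (66.7%), as it was in 58.9% of all genes.

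Per unit of transcript length, in the deposited TPM, the members spanned a wide range of levels. Mcl1, a short-lived BCL2 survival protein, stood first with a mean of 265 TPM over the 5 libraries. Bax (158 TPM) and Bcl2l1 (157 TPM) followed and did not differ beyond their spread over libraries (146 to 165 and 135 to 195 TPM). Ckap2 and Gtse1, both proteins of the mitotic spindle or microtubules, came next at 138 and 130 TPM. Trp53 itself was at 122 TPM, beside Mdm2 at 122 TPM and Ei24 at 124 TPM, with overlapping ranges. The death receptors lay at the bottom, with Eda2r at 8.45, Tnfrsf10b at 5.33 and Fas at 0.288 TPM. Fas, the receptor for Fas ligand, had 0 and 1 counts in the wild-type libraries and 0, 1 and 1 in EedcKO. These counts are below the limit of 3 that a count of 0 allows, so no fold is given.

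**Figure D2:**
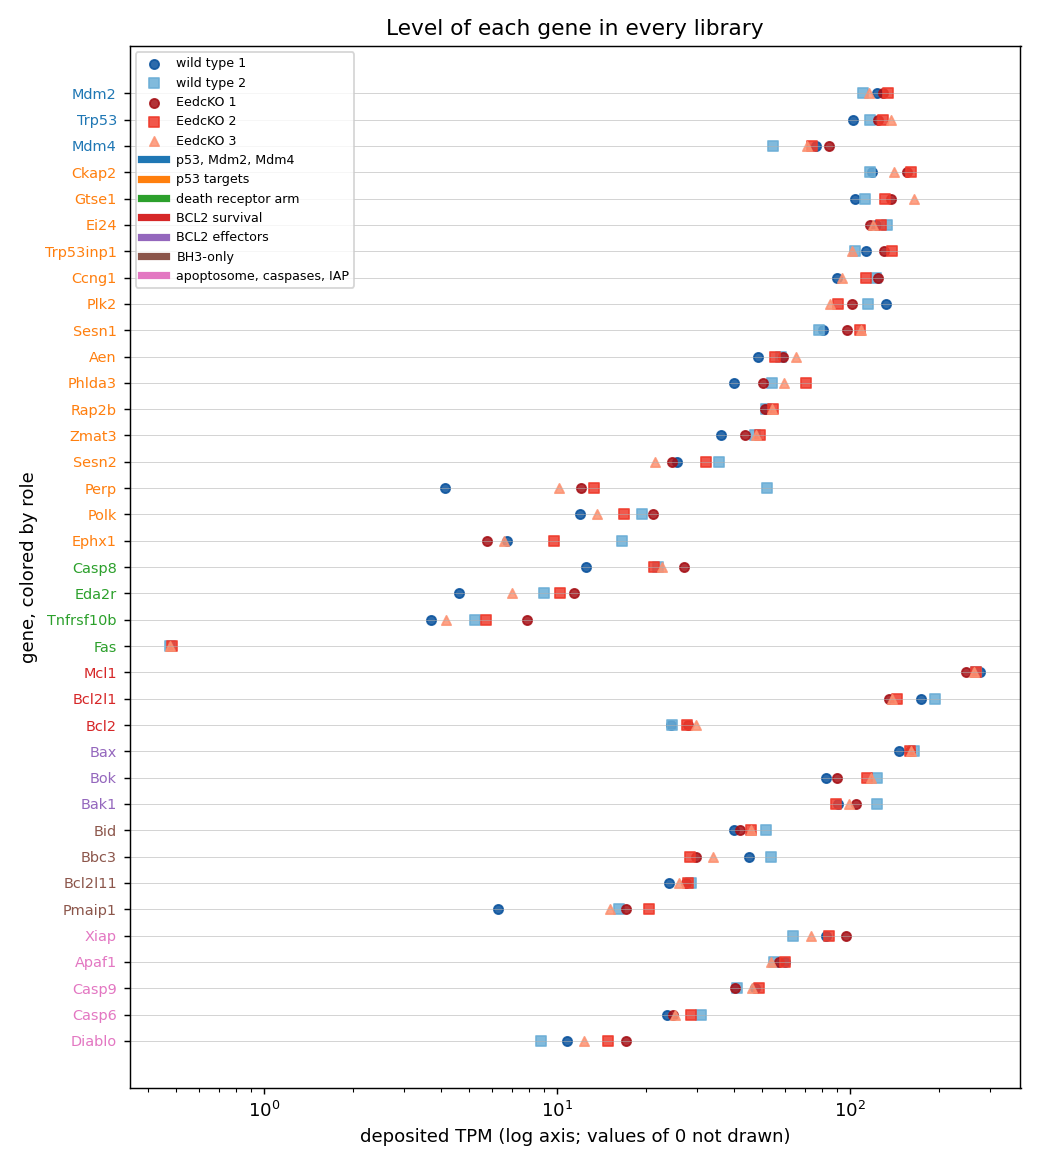
Deposited TPM (log axis) of all 37 genes in each of the 5 libraries, with genes colored and grouped by role and ordered by mean level. Values of 0 are not drawn. Mcl1 is highest at a mean of 265 TPM and Fas lowest, and the points of Perp and Pmaip1 spread most widely.

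Trp53 and its 2 regulators did not pass the test. Trp53 (chromosome 11, 69580359 to 69591873, plus strand, GENCODE on mm10) was at 86.4 CPM in wild type 1 and 98.0 CPM in the library labelled wild type 2. In EedcKO 1, 2 and 3 it was at 103, 108 and 116 CPM. All 3 EedcKO values lay above both wild-type values, by a small margin. The log2 fold change was 0.24 (SE 0.10, edgeR adjusted p = 0.273). Against wild type 1 alone it was 0.34 (edgeR adjusted p = 0.143), and against the library labelled wild type 2 alone 0.14 (edgeR adjusted p = 0.527). The protein is controlled mainly by its stability, which RNA counts do not measure.

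Mdm2, the ligase that degrades p53, was at 130.5 and 116 CPM in wild type 1 and the library labelled wild type 2 and at 135, 141 and 122 CPM in EedcKO 1, 2 and 3. The groups overlapped (log2 fold change 0.11, 95% interval -0.13 to 0.34, edgeR adjusted p = 0.677). Mdm2 has a second promoter that p53 uses, and counts over the gene do not tell its transcripts apart. Mdm4, an inhibitor of p53 activity, was at 236.5 CPM in wild type 1 and 167 CPM in the library labelled wild type 2, and at 256, 226 and 219 CPM in EedcKO. Wild type 1 lay within the EedcKO range, and the low value was that of the library labelled wild type 2. The log2 fold change was 0.21 over all libraries, -0.01 against wild type 1 alone, and 0.47 against the library labelled wild type 2 alone, where it passed (edgeR adjusted p = 0.0428).

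Among the 15 listed p53 targets of growth control and stress defence, 3 had an unadjusted edgeR p under 0.05 with higher values in EedcKO and 1 with lower values, where 7.7% and 9.51% of all genes were. None passed at a false discovery rate of 0.05, and adjusted p ranged from 0.0818 to 0.930. Sesn1, a stress-induced inhibitor of mTORC1 signalling, was at 67.0 CPM in wild type 1 and 64.2 CPM in the library labelled wild type 2. It was at 79.3, 89.2 and 90.4 CPM in EedcKO 1, 2 and 3, a mean of 65.6 ± 1.97 (SD, n = 2) against 86.3 ± 6.06 (SD, n = 3). The log2 fold change was 0.40 (SE 0.10, edgeR adjusted p = 0.0818). Its relative Sesn2, on the other hand, had overlapping groups (15.6 to 25.6 CPM over the 5 libraries, log2 fold change -0.24, edgeR adjusted p = 0.682).

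Ckap2, a microtubule protein of dividing cells (chromosome 8, 22168160 to 22185819, minus strand), was at 79.5 and 77.7 CPM in wild type 1 and the library labelled wild type 2. In EedcKO 1, 2 and 3 it was at 102, 107 and 94.1 CPM. The wild-type values were close together and all 3 EedcKO values stood above them. The log2 fold change was 0.36 (SE 0.09, edgeR adjusted p = 0.0891), and 0.35 or 0.36 with either wild-type library alone. Gtse1, which binds microtubules and restrains p53 in G2 (chromosome 15, 85859745 to 85876573, plus strand), was at 59.4 and 63.6 CPM in the wild-type libraries and 77.3, 74.5 and 93.7 CPM in EedcKO. Its groups were apart too, with EedcKO 3 highest (log2 fold change 0.41, SE 0.12, edgeR adjusted p = 0.136). Both genes are transcribed mostly in dividing cells. Mki67, a marker of cycling cells, was at 511 and 257 CPM in wild type 1 and the library labelled wild type 2 and 478 to 621 CPM in EedcKO, and Top2a at 499.6 and 430 CPM against 540 to 589 CPM. The part of cycling cells in the values of Ckap2 and Gtse1 was not tested. In these bulk samples fewer cells of a type and less RNA per cell cannot be told apart.

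Plk2, a polo-like kinase induced by p53 and by neuronal activity (chromosome 13, 110395046 to 110400844, plus strand), went the other way. It was at 124 CPM in wild type 1 and 106 CPM in the library labelled wild type 2, and at 92.9, 84.0 and 79.5 CPM in EedcKO 1, 2 and 3. Every EedcKO value lay below both wild-type values (log2 fold change -0.43, SE 0.11, edgeR adjusted p = 0.0846). Against wild type 1 alone it passed (-0.53, edgeR adjusted p = 0.0363), and against the library labelled wild type 2 alone it did not (-0.33, edgeR adjusted p = 0.141).

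Perp and Ephx1 differed more between the wild-type libraries than between genotypes. Perp, a membrane protein of epithelial desmosomes that p53 also induces, had 8 counts in wild type 1, whereas the library labelled wild type 2 had 103. In EedcKO 1, 2 and 3 it had 23, 26 and 20 counts. The library labelled wild type 2 was 12.4 times wild type 1, and the EedcKO libraries lay between them. It differed by -1.25 on the log2 scale (95% interval -3.20 to 0.70, edgeR adjusted p = 0.517). Its sign turned with the wild-type library used, from -2.15 against the library labelled wild type 2 alone (edgeR adjusted p = 0.00531) to 1.49 against wild type 1 alone (edgeR adjusted p = 0.136). Perp was highest in the library with the most surface epithelium RNA, and the part of that tissue in its value was not tested. Ephx1, a detoxifying epoxide hydrolase, had 13 and 33 counts in wild type 1 and the library labelled wild type 2 and 11, 19 and 13 in EedcKO. It differed by -0.67 over all libraries (edgeR adjusted p = 0.547) and by 0.12 against wild type 1 alone.

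**Figure D3:**
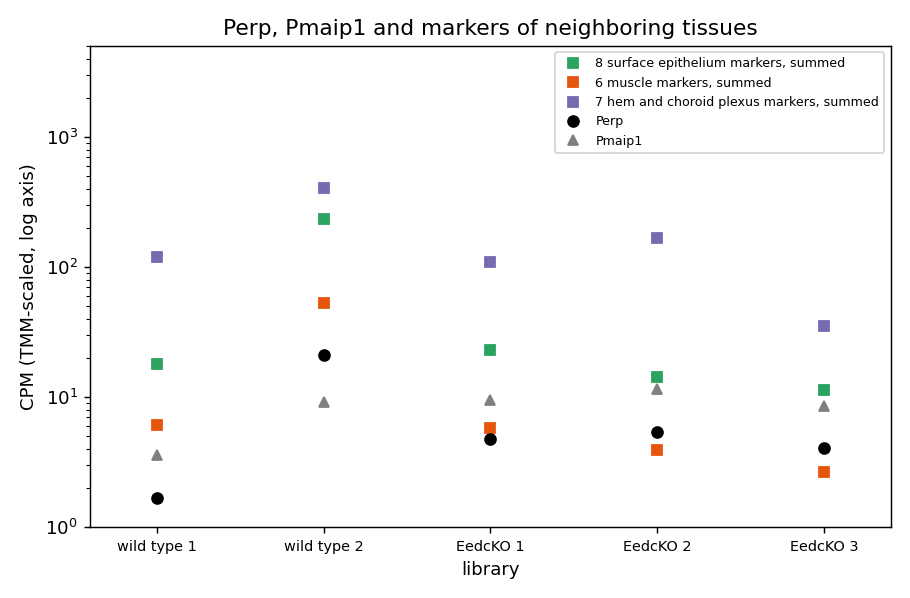
CPM (log axis) of Perp and Pmaip1 in each library beside the summed CPM of 8 surface epithelium, 6 muscle and 7 hem and choroid plexus markers. Perp and all 3 marker sums are highest in the library labelled wild type 2, while Pmaip1 is lowest in wild type 1 and between 8.61 and 11.6 CPM elsewhere.

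The other 9 targets of this list had overlapping groups and log2 fold changes from -0.24 to 0.34. They were Ccng1 (0.04), a cyclin that acts on Mdm2, Phlda3 (0.34), an inhibitor of Akt, Trp53inp1 (0.18) and Aen (0.16), which promote cell death, and the RNA-binding protein Zmat3 (0.16). The DNA polymerase Polk (0.12), the small GTPase Rap2b (0.04) and Ei24 (-0.09) completed the set with Sesn2. Several of these values turned with the wild-type library used. Against wild type 1 alone and against the library labelled wild type 2 alone, Ccng1 differed by 0.28 and -0.17, Zmat3 by 0.36 and -0.03, and Polk by 0.51 and -0.20. Sesn2 likewise differed by 0.02 and -0.47, and Phlda3 by 0.57 and 0.13, with the same sign in both. In Rap2b 54.5% of the exonic bases are shared with a gene on the opposite strand. Whether the counting used strand is not stated in the labels.

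To see what the promoters of these genes have in common, the 250 bases before to 50 after each start site were taken from RefSeq (build GRCm38.p6, the same assembly as mm10). They were found for 32 of the 37 members, in 44 windows. Both strands were searched for TTTGAA, the cell cycle homology element of genes used in mitosis, and for CCAAT, the box that often accompanies it. The p53 consensus was searched as a pair of 10-base half-sites up to 13 bases apart with at most 2 mismatches in all and the core C and G of each half-site kept. TTTGAA was in 8 of 44 member windows, beside 17.9% of all 32851 promoter windows, and CCAAT in 18, beside 37.4%. Both were in 3 member windows (Aen, Casp8 and Ckap2), beside 6.95%. A p53-like match was in 5 member windows (Bax, Ccng1, Ckap2, Gtse1 and Sesn1), beside 4.09%, and an exact one in 0, beside 0.0731%. A match is a description of letters and not a site shown to bind p53. Sequence outside these windows was not searched, so a gene without a match here may hold one elsewhere.

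Ckap2 was the one member whose window held all 3 elements. The 250 bases before its start site (chr8:22185820-22186069, minus strand) are shown because Ckap2 was among the 5 genes with higher values in EedcKO and an unadjusted edgeR p under 0.05. Capitals mark, in order, the p53-like match, TTTGAA, and CCAAT read on the opposite strand (ATTGG).
Ckap2: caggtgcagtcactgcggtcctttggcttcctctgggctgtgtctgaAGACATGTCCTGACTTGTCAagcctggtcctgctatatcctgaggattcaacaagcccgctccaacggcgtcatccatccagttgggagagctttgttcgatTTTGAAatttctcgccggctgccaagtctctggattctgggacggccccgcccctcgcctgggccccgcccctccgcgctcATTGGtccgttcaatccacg

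The p53-like matches of 3 further targets are shown with their flanks, half-sites in capitals, for comparison with that of Ckap2. The match of Gtse1 (spacer 0 bases, 1 mismatch, log2 fold change 0.41) spans its start site and is not printed. Sesn1 (chr10:41887238-41887297, plus strand) had higher values in EedcKO. Ccng1 (chr11:40755437-40755496, minus strand) and Bax (chr7:45467070-45467129, minus strand) had overlapping groups. Among the 4 matches printed, the spacer was 0 bases in Ckap2 and Ccng1, 3 in Sesn1 and 5 in Bax, and the mismatches numbered 1 in Ccng1 and 2 in the others. In Bax the second half-site overlaps a TTTGAA. EedcKO and wild type differed by 0.40 (Sesn1), 0.36 (Ckap2), 0.04 (Ccng1) and 0.03 (Bax) on the log2 scale.
Sesn1: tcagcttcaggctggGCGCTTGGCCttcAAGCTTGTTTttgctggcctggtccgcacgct
Ccng1: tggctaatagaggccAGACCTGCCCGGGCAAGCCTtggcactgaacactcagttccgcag
Bax: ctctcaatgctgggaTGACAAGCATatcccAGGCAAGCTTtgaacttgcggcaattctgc

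The death receptor arm, which starts apoptosis from the cell surface, had 3 tested members of 4, and none passed. Casp8, the protease that the receptors activate, had 36 and 65 counts in wild type 1 and the library labelled wild type 2 and 77, 62 and 67 in EedcKO 1, 2 and 3. Eda2r, the X-linked ectodysplasin A2 receptor, had 27 and 54 counts against 66, 60 and 42. Tnfrsf10b, the TRAIL receptor, had 20 and 29 counts against 42, 31 and 23. In each of the 3 wild type 1 was lowest and the library labelled wild type 2 lay within the EedcKO range. Their log2 fold changes were 0.45, 0.47 and 0.39 (edgeR adjusted p from 0.480 to 0.673). Against wild type 1 alone Casp8 differed by 0.91 and Eda2r by 1.03 (edgeR adjusted p = 0.0944 and 0.144). Against the library labelled wild type 2 alone they differed by 0.09 and 0.06.

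Among the 3 BCL2 survival genes, Bcl2l1 came closest to the threshold of all members. Bcl2l1 encodes BCL-XL, which protects young neurons from death (chromosome 2, 152780668 to 152831728, minus strand). It was at 167 CPM in wild type 1 and 185 CPM in the library labelled wild type 2. In EedcKO 1, 2 and 3 it was at 127, 137 and 133 CPM. The groups were clearly apart, at 176 ± 12.2 CPM (SD, n = 2) and 132 ± 4.94 CPM (SD, n = 3). EedcKO stood at 0.75 of wild type, a log2 fold change of -0.42 (SE 0.09, 95% interval -0.62 to -0.21, edgeR adjusted p = 0.0523), just outside the threshold. DESeq2 placed it inside (-0.42, DESeq2 adjusted p = 0.0216). Against the library labelled wild type 2 alone it was -0.50 (edgeR adjusted p = 0.0211), and against wild type 1 alone -0.34 (edgeR adjusted p = 0.0926). Over the alternatives with both wild-type libraries the adjusted p ran from 0.0216 to 0.289. The direction stayed lower in all alternatives, which groups that lie fully apart make likely beforehand.

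Mcl1 and Bcl2 had small differences. Mcl1, which many neural progenitors need to survive, was at 198 and 190 CPM in wild type 1 and the library labelled wild type 2 and at 173, 189 and 188 CPM in EedcKO. The groups were apart, but by less than the range within EedcKO (log2 fold change -0.08, edgeR adjusted p = 0.725). Bcl2, the founding member of the family, was at 46.6 CPM in each wild-type library and at 52.4, 52.3 and 56.8 CPM in EedcKO (0.21, 95% interval -0.02 to 0.44, edgeR adjusted p = 0.344). Summed per length, the 3 survival genes reached 476 and 488 TPM in the wild-type libraries and 411, 439 and 434 TPM in EedcKO. The sum was not tested, and it follows mainly Bcl2l1, with means of 185 TPM in wild type and 139 TPM in EedcKO. The same means were 273 and 260 TPM for Mcl1, and 24.5 and 28.5 TPM for Bcl2, which was higher in EedcKO.

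The effectors, which permeabilize the mitochondrial outer membrane, had overlapping groups in all 3 genes. Bax was at 48.1 and 53.9 CPM in wild type 1 and the library labelled wild type 2 and at 51.4, 51.9 and 52.7 CPM in EedcKO (log2 fold change 0.03, 95% interval -0.21 to 0.27). Bak1 was at 45.7 and 61.6 CPM against 51.4, 44.5 and 49.4 CPM (-0.15, 95% interval -0.49 to 0.19). Bok, the least understood of the effectors, was at 31.8 and 47.0 CPM against 34.0, 43.2 and 45.1 CPM (0.05, 95% interval -0.41 to 0.51). The library labelled wild type 2 was highest in all 3, and wild type 1 was lowest in Bax and Bok. The sign of each turned when 1 wild-type library was left out: Bax was -0.07 and Bok -0.22 against the library labelled wild type 2 alone, and Bak1 was 0.09 against wild type 1 alone. Of the exonic bases of Bax, 12.2% are shared with a gene on the same strand. Those of Bak1 overlap gene models named Ggnbp1 on the opposite strand, over 18.2% and 7.4% of its bases.

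The 4 BH3-only genes, which sense damage and trigger the effectors, did not move together. Bbc3 encodes PUMA, a p53 target that triggers death of damaged progenitors (chromosome 7, 16308393 to 16318205, plus strand). It was at 20.03 CPM in wild type 1 and 23.6 CPM in the library labelled wild type 2, and at 12.9, 12.4 and 14.97 CPM in EedcKO 1, 2 and 3. All EedcKO values were lower than both wild-type values, at 0.617 of the wild-type level (log2 fold change -0.70, SE 0.18, 95% interval -1.12 to -0.28, edgeR adjusted p = 0.0891). It stood at -0.83 against the library labelled wild type 2 alone (edgeR adjusted p = 0.0508) and -0.57 against wild type 1 alone (edgeR adjusted p = 0.183).

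Pmaip1, which encodes NOXA, gave another pattern. It had 17 counts in wild type 1 but 45 in the library labelled wild type 2, and 46, 56 and 42 in EedcKO 1, 2 and 3. Wild type 1 stood alone at 3.58 CPM, and the other 4 libraries, including the library labelled wild type 2, lay between 8.61 and 11.6 CPM. It differed by 0.64 over all libraries on the log2 scale (edgeR adjusted p = 0.486), 1.47 against wild type 1 alone (edgeR adjusted p = 0.0492) and 0.10 against the library labelled wild type 2 alone. Wild type 1 stood apart from the other 4 libraries in Eed too, but as the highest (404 counts) and not the lowest. A link between these genes would rest on that library alone and was not tested. Bcl2l11 (BIM) and Bid, a substrate of Casp8, had overlapping groups with log2 fold changes of 0.03 and -0.05. Of the exonic bases of Bid 17.7% are shared with Bcl2l13 on the opposite strand.

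Of the 5 genes that act after the mitochondria open, Diablo had the largest difference. Diablo frees caspases from the inhibitor Xiap (chromosome 5, 123509765 to 123524176, minus strand). It had 66 and 55 counts in wild type 1 and the library labelled wild type 2 and 104, 92 and 77 in EedcKO 1, 2 and 3, or 12.55 ± 1.93 CPM (SD, n = 2) against 18.8 ± 2.97 CPM (SD, n = 3). The groups were apart, with EedcKO 1 highest (log2 fold change 0.59, SE 0.21, edgeR adjusted p = 0.207). Its exons overlap those of B3gnt4 on the opposite strand over 21.5% of their bases and those of the predicted gene Gm49027 on the same strand over 19.3%, so its counts may hold reads of these genes. Xiap, on the X chromosome, was at 163 and 125 CPM against 187, 166 and 144 CPM, with overlapping groups (0.20, edgeR adjusted p = 0.565). Apaf1 (-0.02), Casp9 (0.02) and the executioner protease Casp6 (-0.07) differed by less than their spread between libraries.

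**Figure D4:**
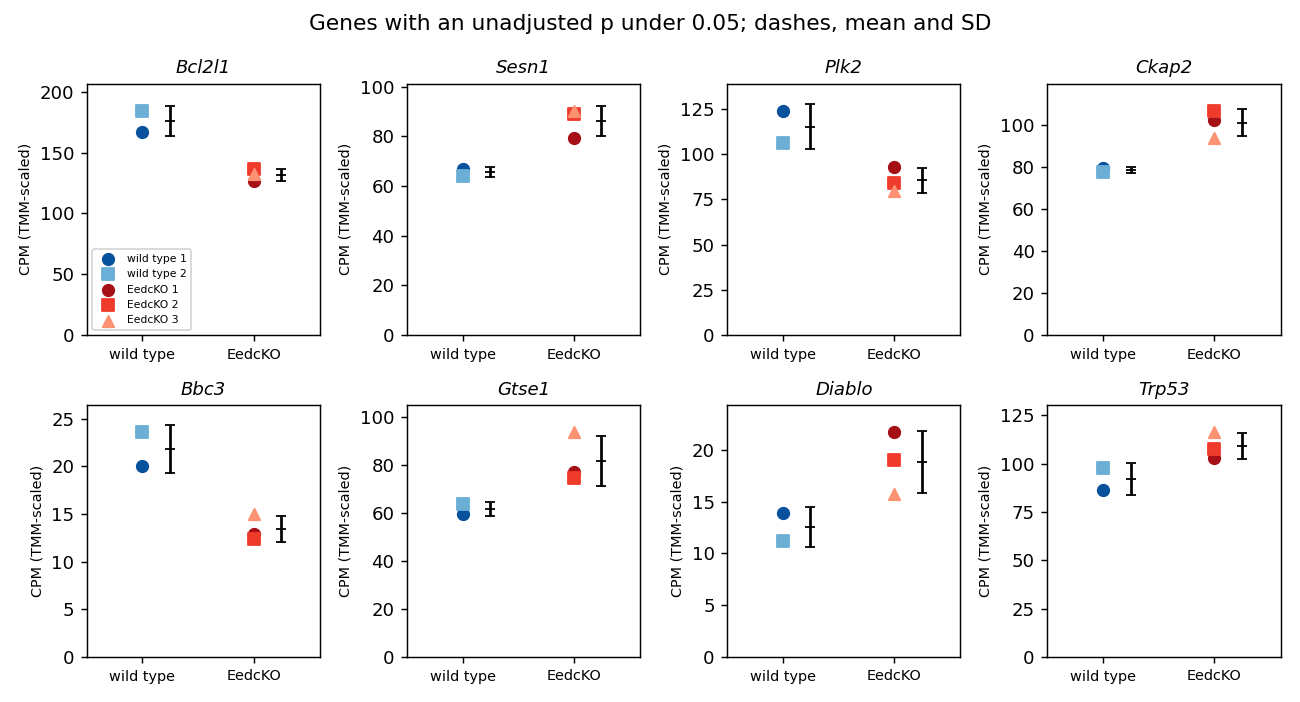
CPM by group of the 8 genes with an unadjusted edgeR p under 0.05, with each library as a point and the mean with SD as a dash and bar beside it. Bcl2l1, Plk2 and Bbc3 are lower in all 3 EedcKO libraries, and Sesn1, Ckap2, Gtse1, Diablo and Trp53 are higher in all 3.

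Because the wild-type libraries differed, each was also used alone against the 3 EedcKO libraries. These fits assume that the lone library varies as the EedcKO libraries do, and they share those libraries. Against the library labelled wild type 2 alone, 3 of 36 members passed (Bcl2l1, Perp and Mdm4), where 7.02% of all genes did. Against wild type 1 alone, 2 of 36 passed (Plk2 and Pmaip1), where 6.2% of all genes did. No member passed in both fits. Without EedcKO 1, 2 or 3, 0 members passed in each fit, where 262, 84 and 0 of all genes did. At an unadjusted edgeR p under 0.05 there were then 6, 6 and 8 of 36 members, where 14.1%, 12.8% and 13.6% of all genes were.

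**Figure D5:**
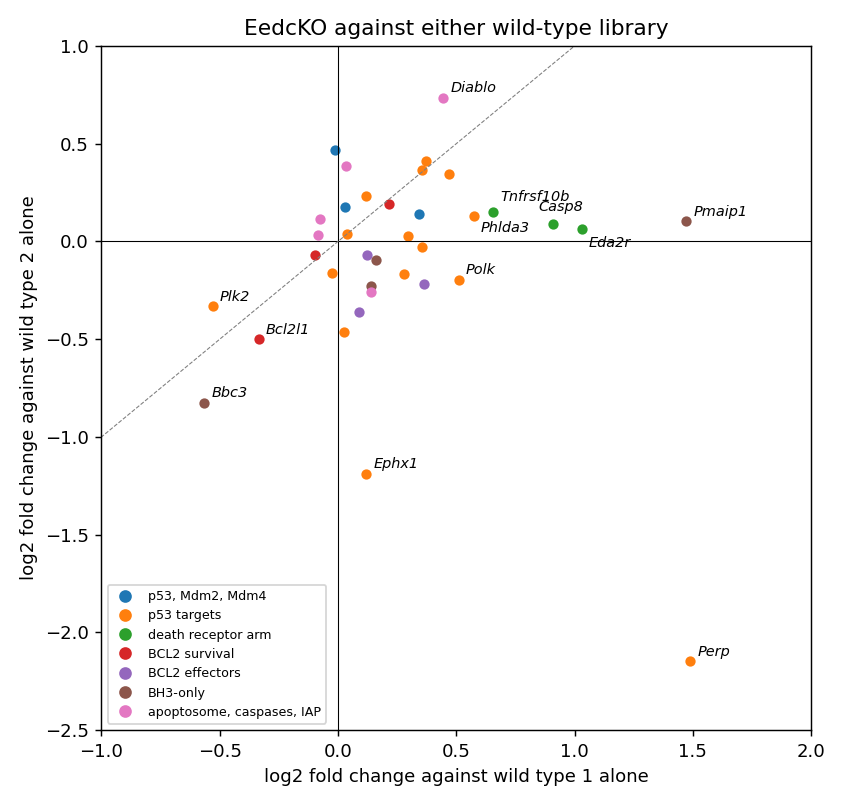
Log2 fold change of EedcKO against wild type 1 alone (horizontal) and against the library labelled wild type 2 alone (vertical) for the 36 tested genes, colored by role, with a dashed line of equal values. Bbc3, Bcl2l1 and Plk2 are lower on both axes, Pmaip1 (1.47 and 0.10), Eda2r and Casp8 lie near a value of 0 on the vertical axis, and Perp (1.49 and -2.15) is far off the line.

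Other genes of the pathway were looked at from 2 further lists. Of 24 tested p53 pathway genes (26 listed) and 26 tested apoptosis genes (28 listed), 0 passed edgeR at a false discovery rate of 0.05. At an unadjusted edgeR p under 0.05, 3 p53 pathway genes were higher in EedcKO and 2 lower, and 1 apoptosis gene was higher. These are 20.8% and 3.85% of the tested genes of the lists, against 17.2% of all genes. Measured without a test, EedcKO lay fully above wild type in 5 of 24 p53 pathway genes and 8 of 26 apoptosis genes (background 16.4%). It lay fully below in 2 and 0 (background 17.4%). DESeq2 called 1 of them, Trp73, and limma-voom 0. The kinases that activate p53 after DNA damage stood first in the p53 list. Atm had 307 and 254 counts in wild type 1 and the library labelled wild type 2 and 450, 380 and 379 in EedcKO (log2 fold change 0.52, SE 0.14, edgeR adjusted p = 0.0938). Chek1 had 279 and 292 counts against 410, 354 and 355 (0.39, SE 0.11, edgeR adjusted p = 0.110). Both had all EedcKO libraries above both wild-type libraries. Atm passed against the library labelled wild type 2 alone (0.68, edgeR adjusted p = 0.0342) and not against wild type 1 alone (0.37, edgeR adjusted p = 0.193). In the apoptosis list Hrk, a neuronal BH3-only gene, had 56 and 97 counts against 103, 105 and 144 (0.62, edgeR adjusted p = 0.277). Bik, another BH3-only gene, had 2 and 6 counts against 10, 10 and 10 (1.30, edgeR adjusted p = 0.296). Hrk differed by 1.05 against wild type 1 alone and by 0.28 against the library labelled wild type 2 alone. Bik differed by 0.73 against the library labelled wild type 2 alone. No fold of Bik against wild type 1 alone is given, because its 2 counts there are below the limit of 3. The median log2 fold changes were 0.03 and 0.04 for the lists and 0.01 for all genes.

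The library labelled wild type 2 was the highest of the 5 in 6 of the 24 tested p53 pathway genes (25%), near its share of all genes (23.3%). The genes that follow were named after their values were seen and stand for no wider pattern. Cdkn1a, which encodes the cell cycle inhibitor p21, had 344 counts in that library against 126 in wild type 1 and 131, 153 and 93 in EedcKO. Gadd45a, a DNA damage response gene, had 137 counts there against 52 to 75 in the other 4 libraries. Sfn, an epithelial 14-3-3 protein, had 75 against 5 to 8 and was not among the genes tested over all libraries. Against the library labelled wild type 2 alone, Cdkn1a and Gadd45a differed by -1.44 and -0.93 on the log2 scale. They were named for their high counts in that library, so a negative sign in this fit was fixed beforehand. No fold of Sfn is given, because it passed the count filter of that fit only through the library labelled wild type 2. Hipk2, also in the p53 list, differed by 0.66 in that fit and by -0.40 against wild type 1 alone. Btg2 (475 and 486 counts) and Ddb2 (145 and 149) were close in wild type 1 and the library labelled wild type 2. Pidd1 (184 and 316) and Hipk2 (922 and 451) were further apart. Cdkn2a, whose ARF product blocks Mdm2 and which is a classical Polycomb target, had 0 counts in wild type 1 but 20 in the library labelled wild type 2, and 17, 52 and 23 in EedcKO (edgeR adjusted p = 0.487). No fitted fold of Cdkn2a against wild type 1 alone is given, because that library is at 0. As with Pmaip1, wild type 1 stood apart from the other 4 libraries in Cdkn2a. With a single wild-type library of that kind, genotype and library cannot be told apart.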

How the data were processed

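Reads were aligned with HISAT2 2.2.0 to mm10, per the submitters' processing notes. The sources used here name no counting tool, strand setting or annotation. The authors deposited whole-number counts per gene for 56196 rows and TPM, scaled to length by the authors, for 24926 rows. Of the rows with counts, 28277 had no gene symbol and held 2.01% to 2.16% of counts, and these were left out. The highest count in the deposited table was 6396, and the totals were well below the number of mapped reads the labels state. The tables held 0 columns of other samples. Where a symbol stood on several rows, a row was used only if it held 99% or more of the counts.

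Counts were tested in R 4.3.3 with edgeR 4.0.16 (filterByExpr, TMM, robust glmQLFit, glmQLFTest on group, Benjamini-Hochberg over 13989 genes, threshold 0.05), and the procedure was tested on simulated data. In the simulation 38.8% of 1.5-fold, 70.1% of 2-fold and 96.9% of 4-fold changes were found at a false discovery rate of 0.05. Changes of 1.5-fold would thus often be missed. CPM are TMM-scaled, 1 count is 0.203 to 0.211 CPM, and the limit of 3 counts is 0.610 to 0.632 CPM. Gene coordinates and exon overlaps come from GENCODE M21. Alternatives were other scalings and filters, DESeq2 1.42.0, limma 3.58.1 (voom, and trend on log2 of TPM plus 1 or 0.1), a replicate block, embryo sex and each library left out. The members, lists and rules were chosen with earlier results of these data known. Members described in every library were p53 and its regulators, those with an unadjusted p under 0.05, the largest changes and highest levels, BCL2 survival and effector genes, and those with 1 library far from the others. For the 2 further lists the 2 genes with the smallest p were named. The chi-square per gene between pairs of libraries ran from 2.55 to 10.4, above sampling noise, and none was treated as a duplicate.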

Additional observations from a re-analysis of the deposited data

How the results depend on the processing

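With 2 wild-type libraries that differ and 3 EedcKO libraries, the number of calls depended on the fit, and the cause was not tested. All genes past the threshold numbered 448, against 675 with library size alone, 679 with DESeq2, 174 with limma-trend on TPM without a filter, 0 with embryo sex as a covariate and 0 to 1012 with a library left out. Members past it numbered 0, against 2 with library size alone (Bcl2l1 and Plk2), 1 with DESeq2, 1 without a count filter and 1 with limma-trend on log2(TPM + 1) (Bcl2l1 in each), and 0 to 3 with a library left out. Genes of the 2 further lists past it numbered 0, against 1 with DESeq2 and 0 to 6 with a library left out. Members with groups apart numbered 10, and 13 to 26 with a library left out (36.1% to 72.2% of members, beside 41.6% to 68.4% of all genes), which fewer libraries favor. The log2 fold change of Eed ran from -0.75 without the library labelled wild type 2 to 0.043 without wild type 1. Among the members described in every library, signs turned for Mdm4 (-0.011), Perp (1.49), Ephx1 (0.12) and Bak1 (0.089) without the library labelled wild type 2, with -2.15 for Perp, -1.19 for Ephx1, 0.47 for Mdm4 and -0.36 for Bak1 without wild type 1. They turned for Bax (-0.067) and Bok (-0.22) without wild type 1, with 0.12 and 0.37 without the library labelled wild type 2, and for Bok with embryo sex (-0.21) and without EedcKO 3 (-0.03). Of the other members, Ccng1, Zmat3, Polk, Sesn2, Bid, Casp6, Bcl2l11, Casp9 and Apaf1 also had opposite signs against one wild-type library and the other, with values from -0.47 to 0.51. In the block by replicate number, 0 genes and 0 members passed (adjusted p of members at least 0.155) and Bok was -0.017. The labels tie same-numbered libraries by the number alone, and their deviations correlated by -0.04 and 0.13. With 2 wild-type libraries the wild-type deviations mirror each other, so these values cannot show whether a batch was shared. Bcl2l1, Bbc3, Plk2, Sesn1, Ckap2, Gtse1, Trp53 and Diablo kept their direction in all alternatives run. These genes were picked by their p in the same libraries, and their groups lay fully apart. Leaving out a library could therefore hardly turn their sign, and the kept direction is no separate support. Depth limits genes such as Fas, Ephx1 and Tnfrsf10b.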
